A study of Mus musculus with 2 samples.

Results

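Liver RNA holds transcripts of every cell type of the organ, and the present report follows 7 genes that mark a pair of its minor cell types. Des, Lrat, Acta2 and Pdgfrb mark hepatic stellate cells, and Krt7, Krt19 and Sox9 mark cholangiocytes, the epithelial cells that line the bile ducts. The 7 genes were chosen as cell type markers, not by their values, and found by their gene symbol among the 27962 gene names of the array, where they had 15 probes, 9 for the stellate and 6 for the biliary genes. All 7 genes had a probe clearly above background throughout at least 1 diet, as did 12 of the 15 probes. The RNA came from the liver of male apoE-KO mice on the C57BL/6 strain, which lack apolipoprotein E and are hypercholesterolemic on any diet, so that both groups share the knockout and no wild-type liver was included. The mice received normal chow or the same chow with 1.25% Chol (the high-Chol diet) for 1 week from 10 weeks of age, with 3 independent experiments per diet and 1 array for each. The sources used here do not say whether 1 array stands for 1 mouse or for pooled mice.

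Stellate cells lie between hepatocytes and the sinusoidal endothelium and store vitamin A as retinyl esters. After liver injury they can turn into myofibroblasts that express smooth muscle actin and lay down collagen, a change driven in part by platelet-derived growth factor and transforming growth factor beta. Cholangiocytes modify bile and express the simple epithelial keratins K7 and K19, and in injury a ductular reaction raises the number of cells with these keratins and with the transcription factor SOX9.

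The 3 normal chow arrays and 1 high-Chol array lay on the same slide (slide 1), and the other two high-Chol arrays on another (slide 2). The scanner software was version 9.5 for slide 1 and 9.1 for slide 2, and 75th percentile signals ran from 271 to 373 on slide 1 and were 762 and 799 on slide 2. Diet and slide are therefore partly confounded, and with slide as a block the difference between the diets rests on the high-Chol array of slide 1 alone. A log2 level here is the log2 signal of a probe minus the 75th percentile of its array, and a log2 difference is the mean level on the high-Chol diet minus that on normal chow. Levels of different probes depend on the probe, so that of a gap between probes or of a summed level only the change between arrays is read. The precision is limited by the number of arrays, and the 2-sided exact permutation test of 3 against 3 arrays cannot go below p = 0.1.

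None of the 7 markers was called between the diets by limma. Of 16725 genes tested, 488 were called at an adjusted p of 0.05, which is 2.92% (2.69% higher and 0.227% lower on the high-Chol diet), and 0 of the 4 stellate and 0 of the 3 biliary markers were among them. At an unadjusted p of 0.05 the count was again 0 of 7, beside 21.2% of all genes. On every one of the 7 genes the arrays of the diets overlapped, whereas 25.8% of all genes had no overlap. In whole-liver RNA, fewer cells of a type and less RNA per cell cannot be told apart.

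**Figure D1:**
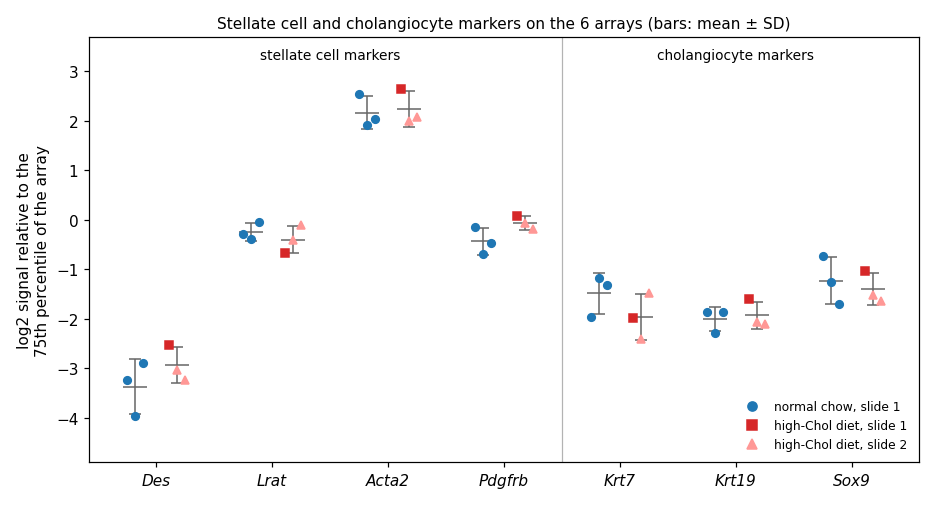
Log2 level (log2 signal minus the 75th percentile of its array) of the brightest probe of each marker on the 6 arrays; blue circles are normal chow, red squares the high-Chol array of slide 1 and pink triangles the high-Chol arrays of slide 2, and gray bars give the mean ± SD of 3 arrays. For each of the 7 genes the ranges of the diets overlap, and heights are not comparable between genes.

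Des encodes desmin, an intermediate filament protein of stellate and muscle cells. Its probe (mm7, chr1:75593023-75593248, plus strand) was printed in 10 spots on each array and spanned 226 bases of the genome with 60 bases of sequence, as a probe across an exon junction does. The log2 level of Des was -3.24, -3.97 and -2.89 on the normal chow arrays, -2.52 on the slide 1 high-Chol array, and -3.04 and -3.23 on the slide 2 arrays. The slide 1 high-Chol array was above all 3 normal chow arrays, and those of slide 2 lay within their range. Des had a log2 difference of 0.44 ± 0.32 (SE, n = 3 per diet; adjusted p = 0.432), and its 95% interval ran from -0.31 to 1.18, or from 0.808-fold to 2.27-fold. The 10 spots of an array had an SD of 0.103 to 0.202 on the log2 scale, and the SD between arrays was 0.55 with normal chow and 0.37 with high-Chol feeding.

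Lrat encodes lecithin retinol acyltransferase, the enzyme that esterifies vitamin A for storage. The log2 level of Lrat on its brighter probe was -0.29, -0.39 and -0.03 on normal chow, -0.67 on the slide 1 high-Chol array, and -0.41 and -0.11 on the slide 2 arrays. The lowest of the 6 values was the high-Chol array of slide 1, and the slide 2 values were close to those of normal chow. Lrat had a log2 difference of -0.16 ± 0.20 (SE, n = 3 per diet; adjusted p = 0.646; 95% interval -0.62 to 0.30). Under median scaling the diets no longer overlapped for Lrat, at -0.40 (adjusted p = 0.239). The median of all genes was then -0.26, against -0.02 in the main fit, so that the change follows a shift of all genes.

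Pdgfrb encodes the beta receptor for platelet-derived growth factor, which stellate cells and pericytes carry. Its only probe lies at chr18:61474380-61474439 (mm7, plus strand). The log2 level of Pdgfrb was -0.14, -0.69 and -0.47 with normal chow and 0.08, -0.07 and -0.19 with the high-Chol diet. A single normal chow array reached into the range of the high-Chol arrays, and the other two lay below it. The log2 difference of Pdgfrb was 0.37 ± 0.19 (SE, n = 3 per diet; adjusted p = 0.291), and its 95% interval, from 0.954-fold to 1.76-fold, reached just below no change. The exact 2-sided permutation test gave p = 0.2. After normexp background correction the diets no longer overlapped for Pdgfrb, at a smaller log2 difference of 0.26 (adjusted p = 0.999).

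Acta2 encodes alpha smooth muscle actin, the textbook marker of activated stellate cells, which smooth muscle of hepatic vessels expresses too. The brightest of its 5 probes gave log2 levels of 2.54, 1.92 and 2.04 with normal chow and 2.65, 1.99 and 2.07 with the high-Chol diet. On both diets 1 array stood above the remaining ones, and the diets overlapped almost entirely. The log2 difference of Acta2 on this probe was 0.07 ± 0.25 (SE, n = 3 per diet; adjusted p = 0.885), with a 95% interval from 0.698-fold to 1.58-fold.

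The probes of Acta2 did not give 1 answer, and their sequences are shown because the value of Acta2 depends on which is read. The brightest, A_51_P450957 (mm7, chr19:33949738-33952992, minus strand), spans 3255 bases of the genome with 60 bases of sequence, as a probe across an exon junction does. Actins are a family of closely related proteins. A_52_P420504 (chr19:33942803-33942862, 10 spots) lies further 3′ and is assigned by the array annotation to the same transcript. A_52_P239556 (chr19:33941939-33941997) is the most 3′ of them and is assigned to cDNA clones rather than to the RefSeq transcript. The first is shown whole and the others by their first 30 bases, all 5′ to 3′ and in lower case:
Acta2 A_51_P450957: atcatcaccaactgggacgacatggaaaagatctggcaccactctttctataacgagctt
Acta2 A_52_P420504: gttttgtggatcagcgcctccagttccttt
Acta2 A_52_P239556: gaagccaagggtgtcccccaaaaatgcagt

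On probe A_52_P420504, the log2 level of Acta2 was -0.67, -1.12 and -1.40 with normal chow and -0.23, -0.02 and -0.39 with the high-Chol diet. All 3 high-Chol arrays were above all 3 normal chow arrays, on slide 1 as on slide 2. The log2 difference was 0.85 ± 0.22 (SE, n = 3 per diet), or 1.80-fold, and was not called in the table of all probes (adjusted p = 0.112; exact permutation p = 0.1). With slide as a block it was 0.83, and with each array left out in turn it ran from 0.68 to 1.05, with adjusted p from 0.07 to 0.378. After normexp correction it was 0.31 and the diets overlapped. Its 10 spots on an array had an SD of 0.048 to 0.264.

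On probe A_52_P239556, the log2 level was -5.01, -4.93 and -5.00 on normal chow, -4.34 on the slide 1 high-Chol array, and -3.55 and -2.22 on the slide 2 arrays. The probe was well above background on 1 of 3 normal chow and 3 of 3 high-Chol arrays, so that it passed the filter only through the diet on which it was higher, and its values are given with no test. The high-Chol values spread over a wide range, and the mean difference of 1.61 on the log2 scale was -0.24 after normexp correction and 0.64 with slide as a block. The last 2 probes of Acta2, A_52_P210078 (chr19:33942440-33942499) and A_52_P644232 (chr19:33954688-33954747), were not well above background on any of the 6 arrays and give no fold.

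The gap between probes A_52_P420504 and A_51_P450957 within an array was -3.21, -3.04 and -3.44 with normal chow and -2.88, -2.01 and -2.46 with the high-Chol diet (log2 scale). The gap was smaller on every high-Chol array, by 0.78 on average (exact 2-sided permutation p = 0.1, the smallest possible here). The differences of these 2 probes, the Acta2 probes above background on all 6 arrays, lay 0.78 apart, and 5.83% of the 4376 genes with several such probes had a wider range, at a median of 0.22. This comparison was made after the values of the probes had been seen. Among the other actins, chosen likewise, Actc1 (cardiac) had a log2 difference of 1.06 ± 0.24 (SE; adjusted p = 0.07) and Actg2 (enteric smooth muscle) one of 0.37 ± 0.16 (SE; adjusted p = 0.26), both without overlap. Of the Actb (cytoplasmic beta actin) probes, A_51_P173760 was lower without overlap (-0.58 ± 0.20, SE; adjusted p = 0.19), and A_51_P251154 overlapped (1.27 ± 0.92, SE; adjusted p = 0.45), with 1 normal chow array at -0.14 and the others at 3.41 and 3.66. The part of related actins in the Acta2 signal was not tested.

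The pair of Lrat probes is shown because they differ in overlap between the diets. A_51_P350033 (mm7, chr3:83000659-83000718) lies 2804 bases 5′ of A_52_P669005 (chr3:82997855-82997914), both on the minus strand. The more 3′ probe holds the polyadenylation hexamer AATAAA, in capitals, which occurs in 4.78% of all 41174 probes in the orientation of the probe. A window of 30 bases of each is given, 5′ to 3′:
Lrat A_51_P350033: ggagtcacatttctggtactgaactgtttt
Lrat A_52_P669005: tgattactgcaaAATAAAttaactttacaa

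On probe A_51_P350033, the log2 level of Lrat was -1.81, -1.86 and -1.60 on normal chow, -1.86 on the slide 1 high-Chol array, and -2.45 and -2.45 on the slide 2 arrays. The diets did not overlap, but the slide 1 high-Chol array was just below the lowest normal chow array. The log2 difference was -0.50 ± 0.21 (SE, n = 3 per diet; adjusted p = 0.244 in the table of all probes), and with slide as a block it was -0.11. Normexp correction gave -0.46, with overlap.

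Krt7 encodes keratin 7, a type II keratin of bile duct epithelium that hepatocytes lack. The log2 level of Krt7 on its brighter probe was -1.96, -1.18 and -1.31 on normal chow, -1.99 on the slide 1 high-Chol array, and -2.41 and -1.48 on the slide 2 arrays. The high-Chol arrays tended to the low side, with 1 normal chow array among them. The log2 difference of Krt7 was -0.47 ± 0.30 (SE, n = 3 per diet; adjusted p = 0.383), the largest in size among the brightest probes of the 7 genes, and its 95% interval ran from 0.440-fold to 1.18-fold.

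The sequences of both Krt7 probes are given because the less bright one separates the diets. The array annotation assigns the brighter probe to a cDNA clone and the less bright one to the RefSeq transcript. A_52_P410685 (mm7, chr15:101409444-101409503, plus strand) is shown whole, and A_51_P312348 (chr15:101413898-101413957) lies further 3′ and is shown by 30 bases around its AATAAA hexamer, in capitals:
Krt7 A_52_P410685: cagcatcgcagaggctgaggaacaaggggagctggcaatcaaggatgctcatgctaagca
Krt7 A_51_P312348: gctgttggctttAATAAAgggcctctctga

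On probe A_52_P410685, the log2 level of Krt7 was -3.36, -4.07 and -3.87 with normal chow and -4.45, -5.35 and -4.66 with the high-Chol diet. All 3 high-Chol arrays were below all 3 normal chow arrays. The probe was well above background on 3 of 3 normal chow and 2 of 3 high-Chol arrays, so that it passed the filter only through the diet on which it was higher, and its difference is given with no test. The mean difference was -1.05 on the log2 scale, and it was -0.68 with slide as a block and -0.84 after normexp correction, where the diets overlapped.

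Krt19 encodes keratin 19, the type I partner of keratin 7. Its only probe (chr11:100250117-100250176, minus strand) gave log2 levels of -1.86, -2.28 and -1.86 with normal chow and -1.61, -2.07 and -2.11 with the high-Chol diet. The highest value was that of the slide 1 high-Chol array, and those of slide 2 lay within the range of normal chow. The log2 difference of Krt19 was 0.07 ± 0.21 (SE, n = 3 per diet; adjusted p = 0.853), with a 95% interval from 0.750-fold to 1.48-fold. Its sign was negative under median scaling (-0.16), where the median of all genes was -0.26, and under quantile normalization (-0.11), where it was -0.02.

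Sox9 encodes a transcription factor of the bile duct and of periportal progenitor-like cells. On its brightest probe (chr11:112894739-112894798, plus strand) the log2 level of Sox9 was -0.74, -1.25 and -1.69 with normal chow and -1.03, -1.52 and -1.64 with the high-Chol diet. All 3 high-Chol values fell inside the range of normal chow, which was 0.96. For Sox9 the log2 difference was -0.17 ± 0.28 (SE, n = 3 per diet; adjusted p = 0.738), with a 95% interval from 0.560-fold to 1.41-fold. A further probe with 10 spots (chr11:112896540-112896599) gave -1.60, -1.74 and -2.36 with normal chow and -1.90, -1.70 and -1.91 with the high-Chol diet, a log2 difference of 0.06 ± 0.23 (SE; adjusted p = 0.89). The remaining Sox9 probe (chr11:112892041-112892893) was well above background on 1 of 3 and 2 of 3 arrays and was not tested.

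**Figure D2:**
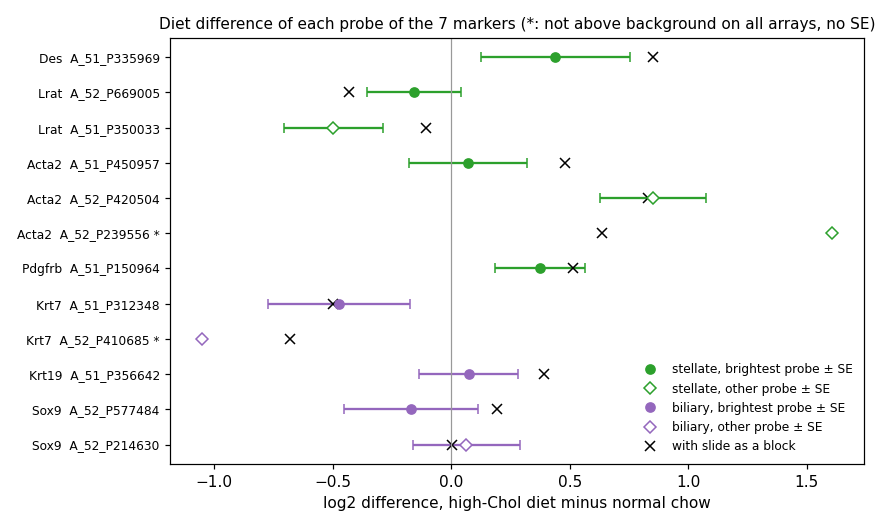
Log2 difference (high-Chol diet minus normal chow, n = 3 arrays per diet) of the 12 probes of the 7 markers that passed the filter; circles are the brightest probe of a gene and diamonds the other probes, horizontal bars are ± SE from limma, and crosses give the difference with slide as a block. Asterisks mark the 2 probes that passed only through the diet on which they were higher, which have no error bar and set both ends of the range, -1.05 (Krt7) and 1.61 (Acta2).

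Taken probe by probe, 0 of the 12 were called, beside 2.62% of 23910 probes. Of the 10 probes above background on all 6 arrays, 2 had an unadjusted p under 0.05, beside 17.4% of 19892 such probes. The same 2 probes had no overlap between the diets, beside 24.3%: A_52_P420504 of Acta2 was higher on the high-Chol diet, and A_51_P350033 of Lrat was lower. In both genes the brightest probe overlapped. Without the high-Chol array of slide 1, when diet and slide cannot be told apart, A_51_P350033 (adjusted p = 0.034) was the probe among the 10 that limma called, and 12.4% of all such probes were called.

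**Figure D3:**
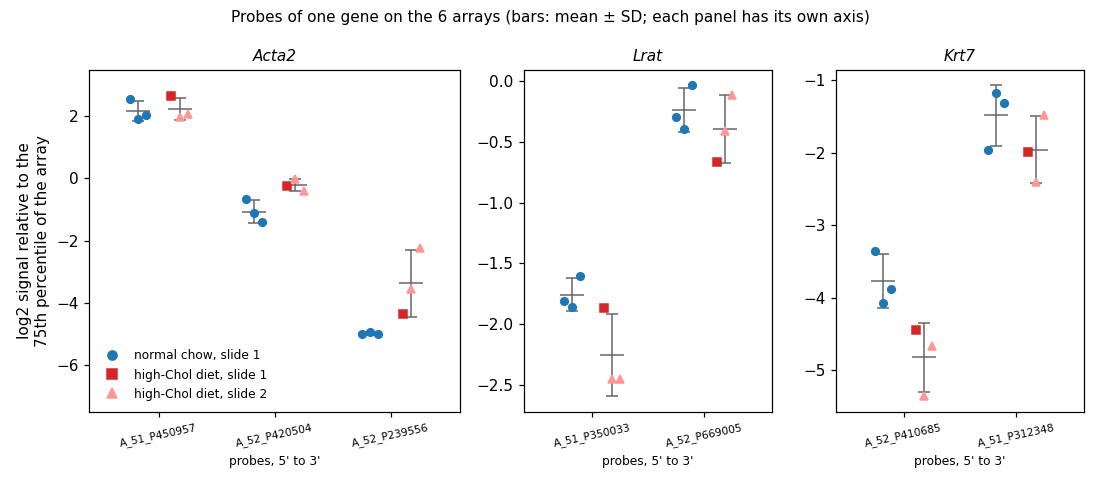
Log2 level (log2 signal minus the 75th percentile of its array) of the passing probes of Acta2, Lrat and Krt7 on the 6 arrays, ordered 5′ to 3′ along the transcript; symbols are as for the plot of the markers by array, and gray bars are the mean ± SD of 3 arrays. The high-Chol arrays sit above normal chow for the last 2 Acta2 probes and below it for the first probes of Lrat and Krt7, and the brightest probe of each gene overlaps; of these, A_52_P239556 and A_52_P410685 passed only through the diet on which they were higher.

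In each of the 3 genes with several probes above background on all 6 arrays, the most 3′ of these had the more positive log2 difference, by 0.78 for Acta2, 0.34 for Lrat and 0.23 for Sox9. Over all 4179 genes with such probes ordered in the same way the 3′ probe was the higher in 52.9%, with a median of 0.02. For all 3 genes the level of the 3′ probe minus that of the 5′ probe was highest on the slide 2 arrays. The order was examined after the values were known, and its cause was not tested.

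On slide 1 alone, Des, Acta2, Pdgfrb and Krt19 on the high-Chol array were above all 3 normal chow arrays, Lrat and Krt7 were below them, and Sox9 lay within. Lying outside the normal chow range on this array was common, at 54.7% of all genes. With slide as a block the log2 difference was 0.85 ± 0.41 (SE) for Des, 0.51 ± 0.25 for Pdgfrb, 0.48 ± 0.28 for Acta2, 0.39 ± 0.23 for Krt19, 0.19 ± 0.36 for Sox9, -0.43 ± 0.23 for Lrat and -0.50 ± 0.45 for Krt7. None was called (adjusted p from 0.617 to 0.902), and 0.0658% of all genes were called in that fit.

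The median log2 difference of the 4 stellate markers was 0.22 and that of the 3 biliary markers -0.17, beside -0.02 for all genes tested. Neither kept its sign under all alternatives: the stellate median ran from -0.02 to 0.50 and the biliary one from -0.41 to 0.19. Both upper values were those with slide as a block. The spread between arrays of 1 diet was larger for Des (pooled SD 0.468), Krt7 (0.441), Sox9 (0.407) and Acta2 (0.344) than the median of 0.25 over all genes, and near it for Krt19 (0.26), Lrat (0.236) and Pdgfrb (0.217).

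Among 14042 other genes above background on each of the 6 arrays, the profile most like that of Lrat was Rdh5, a retinol dehydrogenase, with a root mean square difference of 0.043 between the centered log2 levels of the 6 arrays, followed by Gdf5 (0.069). For Krt19 the nearest were Mbc2 (0.016) and the endothelial gene Pecam1 (0.038), and for Pdgfrb they were Plekhb2 (0.049) and Xylt1 (0.06). For Acta2 these were 2610528J11Rik (0.05) and 2900057D21Rik (0.051), for Des 9130214H05Rik (0.105) and Nipa1 (0.135), for Krt7 Tmem41a (0.078) and the unnamed transcript NAP103523-1 (0.098), and for Sox9 9430023L20Rik (0.091) and Brd8 (0.106). These are given as a description, since the profiles share the 6 arrays and their scaling.

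Around the stellate markers, lists of related genes were examined in the same fit. Of 16 genes of quiescent stellate cells, 0 were called, and their median log2 difference was -0.03. Ngfr, a neurotrophin receptor, had a log2 difference of 0.67 ± 0.40 (SE; adjusted p = 0.36). Reelin (Reln, -0.01) and decorin (Dcn, -0.03), further genes that stellate cells express strongly, had log2 differences near 0. On a linear scale, the summed level of the 9 stellate cell markers ran from 59.1 to 79.7 over the normal chow arrays. With high-Chol feeding it ran from 57.7 to 71.0. Dcn, the brightest of the 9, weighs most in this sum, which is therefore largely a reading of Dcn. Hand2 was the marker among the 9 that was not above background on all arrays.

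Of the activated stellate list, 14 of 16 genes were tested, 3 rose (2.69% of all genes) and 0 fell, with a median log2 difference of 0.53 beside -0.02 for all genes, and 8 had no overlap (25.8% of all genes), 7 higher and 1 lower. Vim (vimentin) had log2 levels of 1.32, 1.40 and 1.57 with normal chow and 2.57, 2.89 and 2.73 with the high-Chol diet, a log2 difference of 1.30 ± 0.16 (SE; adjusted p = 0.01). Col1a1 (the alpha1 chain of type I collagen) was -0.79, -1.15 and -1.13 against 0.14, -0.07 and -0.02, a log2 difference of 1.04 ± 0.17 (SE; adjusted p = 0.03). Tgfb1 (transforming growth factor beta 1) was -2.38, -2.44 and -2.29 against -1.51, -1.12 and -1.51, a log2 difference of 0.99 ± 0.17 (SE; adjusted p = 0.03). For all 3 genes every high-Chol array, that of slide 1 included, was above every normal chow array.

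The 3 calls rested on the arrays and settings used. With slide as a block the log2 differences were 1.14 for Vim, 1.16 for Col1a1 and 0.86 for Tgfb1, and 0 of the 14 genes were called. After normexp correction they were 1.27, 0.54 and 0.00, again with 0 calls, as over the whole array. The fixed normexp offset of 50 exceeds the median signals of slide 1 (26.9 to 36.4) but not those of slide 2 (97.9 and 103). It thus weighs more on slide 1, which holds all normal chow arrays, and mostly on dim probes. With each array left out in turn, Vim was called in 4 of 6 fits (adjusted p up to 0.071, without the second normal chow array), Col1a1 in 2 of 6 (without the first normal chow or the slide 1 high-Chol array, and otherwise up to 0.127) and Tgfb1 in 1 of 6 (without the slide 1 high-Chol array, and otherwise up to 0.146). Vim and Tgfb1 are expressed by macrophages too, and 5 of 11 tested Kupffer cell and macrophage genes rose (2.69% of all genes), with 0 falling and a median log2 difference of 0.86. Of the 5, Ccr2 was well above background on 1 of 3 normal chow arrays and so passed only through the high-Chol diet. With slide as a block or after normexp correction 0 of the 11 were called, at medians of 0.71 and 0.78. The summed level of the 7 macrophage markers with a value on all 6 arrays ran from 106 to 118 over the normal chow arrays. With high-Chol feeding it ran from 244 to 284. Cd5l, the brightest of the 7, weighs most in this sum, which is therefore largely a reading of Cd5l. The part of macrophages in these differences was not tested.

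Tagln (transgelin, an actin-binding protein of smooth muscle) had the largest log2 difference of that list without being called (1.92 ± 0.76, SE; adjusted p = 0.22). Its log2 level was 3.12, 3.46 and 3.28 on normal chow, 3.45 on the slide 1 high-Chol array, and 6.88 and 5.29 on the slide 2 arrays. The difference thus lay entirely on slide 2, with 0.16 when slide was a block, as was largely so for Acta2 probe A_52_P239556. Among 11 tested smooth muscle and pericyte genes 0 were called, and their median was 0.37 and -0.25 after normexp correction. Cnn1, Synpo2 and Cspg4 passed the filter only through the high-Chol diet, on which they were higher, and the median of the 8 genes above background on all 6 arrays was 0.15. The largest above background on all arrays were Tpm2 (beta-tropomyosin, 1.11 ± 0.27, SE; adjusted p = 0.09; 0.48 with slide as a block) and Mylk (myosin light chain kinase, -0.62 ± 0.22; adjusted p = 0.19). With slide as a block Mylk was at -0.20.

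Of 9 portal fibroblast genes 0 were called, with a median log2 difference of 0.17 (-0.42 after normexp correction, and -0.06 for the 8 genes above background on all 6 arrays, without Fbln1) and with Clec3b (tetranectin, -0.88 ± 0.32, SE; adjusted p = 0.19) and Thy1 (0.82 ± 0.26; adjusted p = 0.16) the largest above background throughout. With slide as a block Clec3b was at -0.18 and Thy1 at 0.50, and after normexp correction they were at -0.68 and -0.18. Of 6 genes for platelet-derived growth factors and their receptors 0 were called, with a median of 0.16 (-0.37 after normexp correction, and 0.06 for the 5 genes above background on all 6 arrays, without Pdgfb). The ligand Pdgfc had log2 levels of -1.60, -1.84 and -1.68 with normal chow and -0.33, -0.45 and -1.21 with the high-Chol diet (1.04 ± 0.25, SE; adjusted p = 0.09), without overlap. The ligand Pdgfa had a log2 difference of -0.02, and the alpha receptor Pdgfra one of 0.26 (adjusted p = 0.42). Of 6 tested ligands, receptors and related genes of transforming growth factor beta, Tgfb1 was the only call (1 of 6 rose, beside 2.69% of all genes), at a median of 0.13 (-0.02 with slide as a block, and -0.03 for the 5 genes above background on all 6 arrays), and Tgfb3 followed with 0.73 ± 0.19 (SE; adjusted p = 0.11).

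Of 14 retinoid-handling genes 1 rose (2.69% of all genes) and 0 fell, with a median log2 difference of -0.13. The gene that rose, Lpl, encodes lipoprotein lipase, which releases fatty acids from lipoproteins and takes part in retinyl ester uptake. Its log2 level was 1.44, 0.85 and 1.40 with normal chow and 3.00, 3.28 and 3.03 with the high-Chol diet (1.87 ± 0.21, SE; adjusted p = 0.01). It was called in 6 of 6 fits with an array left out, and its difference was 1.76 with slide as a block, in which it was not called. Cyp26b1, which degrades retinoic acid, had the next largest value (-1.32 ± 0.52, SE; adjusted p = 0.22), with 2.20, 2.37 and 0.43 on normal chow.

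**Figure D4:**
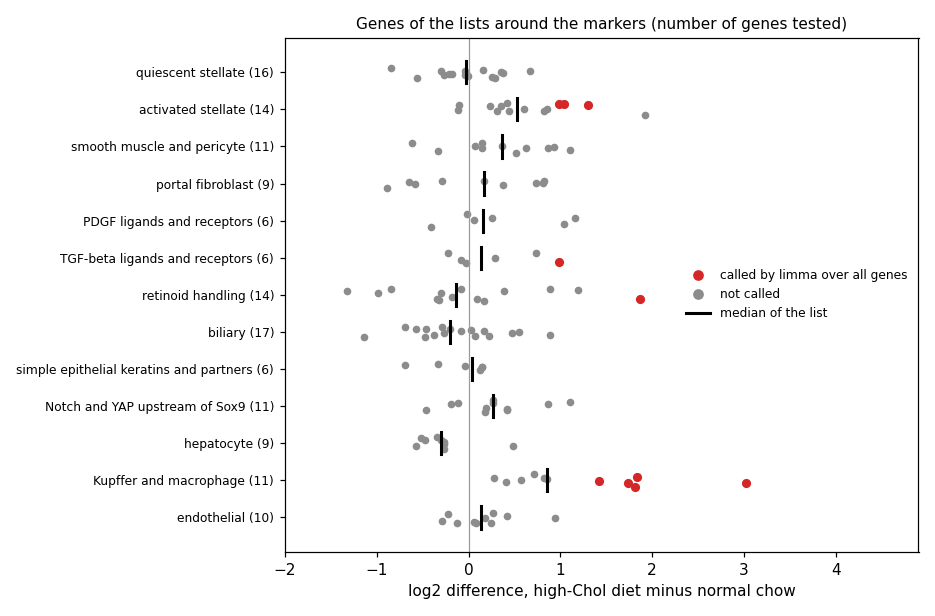
Log2 difference (high-Chol diet minus normal chow) of the tested genes in lists around the markers, 1 dot per gene, with the number of genes tested in parentheses; red dots were called by limma over all genes, gray dots were not, and black bars are the median of each list. The activated stellate list holds 3 red dots at a median of 0.53, the biliary list holds none at -0.20, and the macrophage list holds 5 at 0.86. Of these 5, 4 were above background on all 6 arrays, and Ccr2 passed the filter only through the high-Chol diet.

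Of 23 further biliary genes 17 were tested and 0 were called, with a median log2 difference of -0.20. The diets did not overlap for 8 of the 17 (25.8% of all genes), of which 7 were lower and 1 was higher. The largest were Onecut1 (a transcription factor of bile duct development and hepatocytes), with -1.14 ± 0.33 (SE; adjusted p = 0.13), and Pkhd1 (fibrocystin of the primary cilium), with 0.89 ± 0.27 (SE; adjusted p = 0.15). The 7 lower genes were chosen for their lack of overlap and comprised Onecut1, Krt23 (-0.69), Spp1 (osteopontin, -0.57), Epcam (-0.48), Slc4a2 (the chloride-bicarbonate exchanger AE2, -0.46), Cldn7 (-0.38) and Aqp1 (-0.20).

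The summed level of 6 cholangiocyte markers was 14.3 to 17.3 on normal chow, 13.0 on the slide 1 high-Chol array, and 10.3 and 10.2 on those of slide 2, with no overlap. Without Spp1, which other liver cells can express, the sum of the other 5 markers was 1.43 to 1.53 on normal chow and 1.42 to 1.57 on the high-Chol diet, with overlap, so that the lack of overlap rested on Spp1. The marker Cftr did not clear background throughout either diet. The summed level of 6 hepatocyte markers was lower as well, at 1365 to 1621 with normal chow and 1061 to 1189 on the high-Chol diet, and that of 6 endothelial markers overlapped, at 29.4 to 33.4 and 29.8 to 32.9. The median log2 difference of the 6 hepatocyte markers was -0.30 (-0.08 after normexp correction), with 5 lower and 1, Ttr, higher (0.48). Alb and Clec4g, the brightest of each set, weigh most in the hepatocyte and endothelial sums. How far the makeup of the tissue had a part in these sums was not tested.

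Of 6 tested simple epithelial keratins and partners 0 were called, with a median log2 difference of 0.04. Krt8 (0.15 ± 0.23, SE; adjusted p = 0.71) and Krt18 (0.14 ± 0.28; adjusted p = 0.78), the keratin pair that hepatocytes and cholangiocytes share, showed values near 0, as Krt19 did. With slide as a block the log2 difference was 0.48 for Krt8, 0.66 for Krt18 and 0.39 for Krt19, none of them called. Krt23 stood apart, with 0.34, 0.09 and 0.17 with normal chow and -0.53, -0.44 and -0.50 with the high-Chol diet (-0.69 ± 0.14, SE; adjusted p = 0.06). Of 11 tested genes of the Notch and YAP pathways, which act upstream of Sox9, 0 were called, and the median of 0.26 was -0.20 after normexp correction. Ccn1 (Cyr61 on the array, a matricellular target of YAP) had a log2 difference of 1.11 ± 0.24 (SE; adjusted p = 0.07) and Hey1 (a Notch target) one of 0.87 ± 0.24 (SE; adjusted p = 0.12), whereas Yap1 had -0.11 and Jag1 0.19.

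Markers of tissues that a liver piece can carry along were examined as well. Of the 5 defining striated muscle markers (Ckm, Acta1, Myh4, Mb and Tnnt3) and the 3 of mesothelium (Msln, Upk3b and Wt1) none cleared background throughout a diet. In the wider muscle list 4 of 10 genes were tested and 1 rose, beside 2.69% of all genes (Tnni2, 1.32 ± 0.24, SE; adjusted p = 0.04; 0.81 with slide as a block, where it was not called, and called in 1 of 6 fits without an array, that without the slide 1 high-Chol array). The median log2 difference of the 4 muscle genes was 1.06, and 0.015 with slide as a block. The diets did not overlap for 3 of them (25.8% of all genes), 2 higher and 1 lower. Of the pancreas list 5 of 8 genes were tested and 0 were called.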

How the data were processed

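Labeled cRNA from the liver of apoE-KO mice was hybridized to 6 one-colour Agilent arrays, 3 per diet. The authors deposited the scanner output, in which spot intensity values had been background-subtracted by Agilent Feature Extraction (version 9.1 in the submitters' processing notes; the files give 9.5 for slide 1 and 9.1 for slide 2) and not normalized between arrays. They deposited in addition a table of normalized log2 values, 1 per probe and diet (normalized and filtered with Gene Spring GX per the study's methods, which do not give the scaling); against the scanner output its differences ran with slope 1.00 and lay -0.0063 from those of median scaling over 22597 probes, with column medians of -0.0019 and -0.27.

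The log2 of the processed intensity minus the 75th percentile of the 43379 non-control spots was taken on each array. Outlier spots, of which an array had 75 to 196, were dropped, spots of a probe were averaged, and probes well above background throughout at least 1 diet were retained. The probe with the highest mean stood for its gene. The diets were compared across all genes by lmFit and eBayes of limma 3.58.1 (R 4.3.3), without covariates, and p-values were adjusted after Benjamini-Hochberg over all genes or, for single probes, all probes, at a threshold of 0.05. Simulated data were used to test this step. Plots were made with Python 3.11.15, pandas 2.3.3, numpy 2.4.6 and matplotlib 3.10.9.

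The members, gene lists and tests were chosen with earlier results of these data known. Named genes are the members, list genes called by limma, otherwise up to 2 per list with the largest difference among genes above background on all arrays, and the 2 nearest profiles of each member. Some single genes that this rule names are not reported here. Other list genes given by value (among them Reln, Dcn, Pdgfa, Pdgfra, Tgfb3, Krt8, Krt18, Yap1, Jag1 and the biliary genes without overlap) were chosen after their values were seen. Alternatives were a normexp background (offset 50), median scaling (floor 5), quantile normalization, no filter or a filter for all 6 arrays, the mean of the probes of a gene or every probe by itself, slide as a block, arrays left out singly, the methods' t-test, a trended and robust prior, and the authors' values. The order of probes along the transcript, arrays left out probe by probe, the restriction to probes or list genes above background on all 6 arrays, the cholangiocyte sum without Spp1 and the other actins were added after seeing the data. Positions are those of the array annotation (mm7), and no genome was used, so that exons and untranslated regions were not looked up.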

Additional observations from a re-analysis of the deposited data

How the results depend on the processing

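The count of called genes stayed at 0 of 4 stellate and 0 of 3 biliary markers under all 15 alternatives with a test, and only the probe-by-probe fit without the slide 1 high-Chol array called probes of members, 3 of 12, of which 1 was above background on all arrays. The median of the stellate markers ran from -0.02 (the authors' deposited values) to 0.50 (slide as a block), and that of the biliary markers from -0.41 to 0.19. Of 117 values of single members under the alternatives, 101 kept their direction and side of the threshold, 14 changed sign, and 13 moved by more than the pooled SD between arrays, among them the authors' values of Lrat (-0.40) and Pdgfrb (0.13), Pdgfrb under median scaling (0.14), Acta2 with the mean of its probes (0.84, adjusted p = 0.074, the lowest of any member, with probe A_52_P239556 included, which passed only through the high-Chol diet), and Lrat (-0.43), Acta2 (0.48) and Krt19 (0.39) with slide as a block. The sign of Acta2 turned under median scaling (-0.17), with the authors' values (-0.17), and in 2 of 6 fits without an array (range -0.14 to 0.26). That of Krt19 turned under normexp (-0.31), median scaling (-0.16), quantile normalization (-0.11), the authors' values (-0.17), and in 2 fits without an array (range -0.087 to 0.16). Des turned under normexp (-0.38), and Sox9 turned with slide as a block (0.19), on its probe A_52_P214630 (0.063) and without the first normal chow array (range -0.40 to 0.074). Median scaling took the median of all genes from -0.02 to -0.26. The authors' differences ran with slope 1.00 on those of 75th percentile scaling, at an offset of -0.24. Values under these 2 settings therefore carry a shift common to all genes. The cause of the other changes was not tested.

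The calls of the gene lists went from 3 (activated stellate), 1 (transforming growth factor beta), 1 (retinoid handling), 5 (macrophage) and 1 (striated muscle) to 0 in each with slide as a block and under normexp, where 11 and 0 genes were called over the whole array, and the methods' t-test called 5 after Benjamini-Hochberg adjustment against 488 with limma. Of the 5 macrophage calls, 4 were of genes above background on all 6 arrays, and Ccr2 passed the filter only through the high-Chol diet. Median scaling called 331 genes higher and 73 lower, against 450 and 38. Leaving out the slide 1 high-Chol array, when diet and slide cannot be told apart, 2312 genes were called higher and 760 lower, and without the second normal chow array 42 and 0. No paired analysis was possible because the files carry no replicate numbers that tie an array of 1 diet to an array of the other. Signal limits Des most, whose spot intensities were 17.7 to 43.8 on normal chow and 65.2 to 97.0 on the high-Chol diet before scaling.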
